A study of Mus musculus with 11 samples.

Results

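The genes described here are 10 genes of 3 calcium- and carbohydrate-binding protein families, S100a4, S100a6, S100a10, S100a11, S100a13, Anxa1, Anxa2, Anxa5, Anxa6 and Lgals1, out of 54532 genes in the deposited count table. They were chosen by name, with the difference between middle-aged and young CD8+ Tregs already known, so their age difference is given as a description and without a p value. The cells were CD8+ T cells positive for CD44, Ly49 and CD122, termed CD8+ Tregs, from the spleen of wild-type mice (C57BL/6J), enriched for CD8 with magnetic beads and then sorted by flow cytometry. The labels name no transgene, deletion or treatment for any group. The young group was 2 to 3 months old and comprised 3 males and 3 females, and the older group, which the labels call Old and which is called middle-aged here, was 10 to 12 months old and comprised 2 males and 3 females. The ages are those of the labels, and the legend of the study differs in giving a single age per group, at the upper end of each range. Each of the 11 bulk RNA sequencing libraries was made from its own sorted sample with a low-input cDNA kit. In bulk RNA a lower level can come from fewer cells of a type or from less RNA per cell, and these cannot be told apart.

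S100 proteins are small EF-hand proteins that bind calcium and then attach to partner proteins. Annexins bind phospholipid membranes when calcium rises, and several S100 proteins pair with an annexin at the membrane, as S100a10 does with Anxa2 and S100a11 with Anxa1. Lgals1 encodes galectin-1, a lectin that binds beta-galactosides on glycoproteins of T cells and other cells. In T lymphocytes, several of these transcripts, such as those of S100a4, S100a6, Anxa2 and Lgals1, are known to be low in naive cells and high in effector and memory cells.

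Of the 10 genes, 6 lay on chromosome 3 (coordinates are those of the files, GRCm38). S100a13 (90514435 to 90524581), S100a4 (90603771 to 90606045) and S100a6 (90612882 to 90624181) followed each other on the plus strand, with 79189 bases between the first pair and 6836 bases between S100a4 and S100a6. S100a11 (93520488 to 93526287) and S100a10 (93555080 to 93564643) formed a second group with 28792 bases between them, and Anxa5 (36448923 to 36475894, minus strand) lay apart. The other 4 were Anxa1 on chromosome 19 (20373428 to 20390944, minus strand), Anxa2 on chromosome 9 (69453620 to 69491795), Anxa6 on chromosome 11 (54979108 to 55033445, minus strand) and Lgals1 on chromosome 15 (78926725 to 78930465). Promoter windows of 300 bases, from 250 bases before to 50 bases after the RefSeq start site (GRCm38.p6), were at hand for 7 of the 10, and S100a10, Anxa6 and Lgals1 had no entry. Those of S100a6, the gene with the largest age difference among the members, of its neighbour S100a4, which was almost not counted, and of Anxa2 are shown 5′ to 3′, with the matches to 5 common promoter motifs in capitals. They lie at chr3:90612644-90612943 (S100a6), chr3:90603520-90603819 (S100a4) and chr9:69453433-69453732 (Anxa2), all on the plus strand.
S100a6: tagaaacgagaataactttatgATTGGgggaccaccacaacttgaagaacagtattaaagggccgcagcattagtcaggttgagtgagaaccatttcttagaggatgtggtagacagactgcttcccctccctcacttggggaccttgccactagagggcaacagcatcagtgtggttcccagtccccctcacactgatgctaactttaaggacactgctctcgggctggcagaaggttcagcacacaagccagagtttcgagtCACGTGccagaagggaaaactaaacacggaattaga
S100a4: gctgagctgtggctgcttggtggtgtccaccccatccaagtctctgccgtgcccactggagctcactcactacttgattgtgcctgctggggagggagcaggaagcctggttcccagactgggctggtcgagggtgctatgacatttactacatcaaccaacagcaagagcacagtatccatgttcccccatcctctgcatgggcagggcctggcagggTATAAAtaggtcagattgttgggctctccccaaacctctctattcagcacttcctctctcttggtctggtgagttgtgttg
Anxa2: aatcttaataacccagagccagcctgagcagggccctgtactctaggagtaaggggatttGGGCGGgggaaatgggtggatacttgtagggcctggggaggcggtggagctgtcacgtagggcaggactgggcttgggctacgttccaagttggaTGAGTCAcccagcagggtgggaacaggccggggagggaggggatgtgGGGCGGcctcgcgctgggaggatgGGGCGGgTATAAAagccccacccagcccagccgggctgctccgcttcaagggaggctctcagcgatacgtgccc

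The motifs were the TATA box with the letters TATAAA, the CCAAT box, the GC box with the letters GGGCGG, the AP-1 site with the letters TGANTCA and the E-box with the letters CACGTG, searched on both strands, and none of these words contains another. They occurred in 13.6%, 37.4%, 35.7%, 7.81% and 7.15% of all 32851 promoter windows of the table. S100a6 held a CCAAT match on the reverse strand at position -228 from the start site and an E-box at position 14. S100a4 held a TATA box match at position -31 and none of the other 4 words. Anxa2 held a TATA box match at position -17, an AP-1 match at position -95 and 3 GC box matches, at positions -190, -48 and -24. Among the 7 windows, the TATA box stood in 3 (S100a4, Anxa1 and Anxa2), the AP-1 site in 2 (S100a11 and Anxa2) and the E-box in 2 (S100a6 and S100a11). These matches describe the letters of the windows and say nothing of binding.

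Between 6135736 (young male 1) and 24394532 (young female 2) reads were counted on genes per library, and young female 1 had 8421396. Levels are given as CPM, the count relative to the library total after edgeR's TMM scaling. By counting error alone, a count of 0 leaves room for 0.543 CPM in the shallowest and 0.119 CPM in the deepest library. The gate genes were present in every library, with Cd8a between 642 and 1015 CPM and Cd3e between 533 and 984 CPM. The CD122 gene Il2rb lay between 552 and 2625 CPM and Cd44 between 42.3 and 165.5 CPM. Both were lowest in young male 1, the shallowest library, and the next lowest values were 1293 and 98.4 CPM. Ikzf2, the Helios gene, lay between 10.8 CPM in middle-aged female 2 and 69.2 CPM in young female 1. Libraries carry a replicate number, and the 4 numbered 1 stood apart from the rest. In these the tested genes shorter than 1000 bases lay above their mean by a median of 0.31 to 0.93 on the log2 scale, whereas in the other 7 libraries they lay below it by 0.02 to 0.37. Middle-aged female 2 held a summed 1595 CPM of 12 myeloid marker genes, against 224 to 676 CPM for the other middle-aged and 181 to 461 CPM for the young libraries. Age differences that these libraries moved most are given with and without them.

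Of the 10 genes, 9 had enough counts to be tested, and S100a4 did not. In the age comparison, which included sex as a second term, 0 of the 9 had an adjusted p under 0.05 by edgeR's quasi-likelihood test, where 3 of 13129 tested genes did (0.0229%). At an unadjusted p under 0.05 there was 1, S100a6, against 2.99% of all tested genes. DESeq2 called 1 member (0.86% of tested genes) and limma voom 1 (1.05%), S100a6 in both. S100a6 was also the only member whose middle-aged libraries all lay outside the range of the young ones, as 172 tested genes did (1.31%). The log2 fold change, middle-aged over young, was positive in 6 and negative in 3 of the 9, with a median of 0.18 beside 0.00 over all tested genes, and 50.4% of all tested genes had a positive value. As the members were chosen with this contrast in view, nothing is read from these counts.

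**Figure D1:**
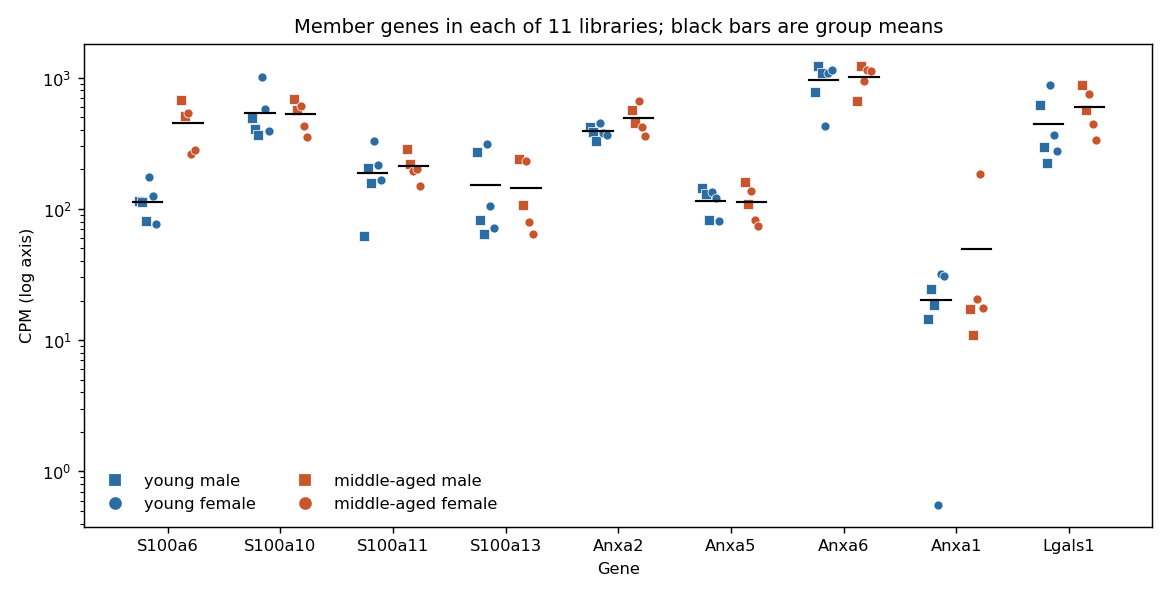
CPM of the 9 tested genes in each of the 11 libraries on a log axis, young in blue and middle-aged in orange, males as squares and females as circles, with black bars for group means. The 5 middle-aged S100a6 values (260.4 to 673 CPM) lie above all 6 young ones (76.0 to 173.5 CPM), and for the other 8 genes the age groups overlap.

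**Figure D2:**
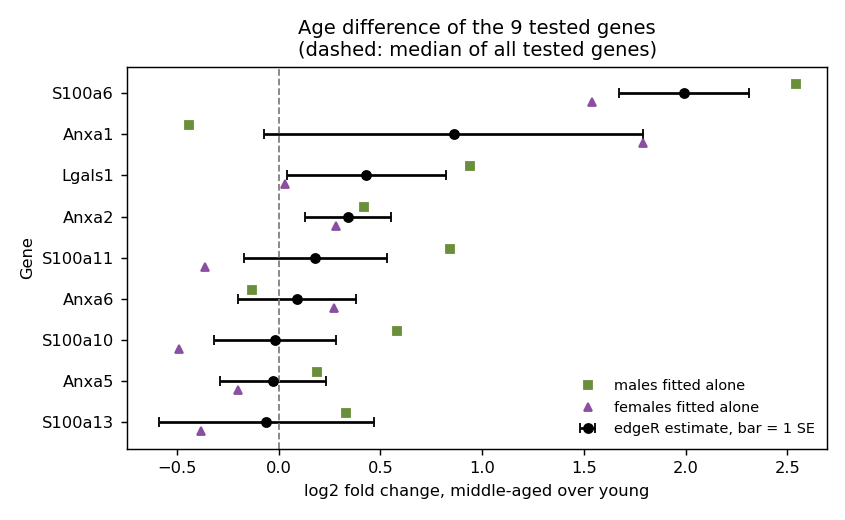
Log2 fold change, middle-aged over young, of the 9 tested genes in the model with sex (black points, bars of 1 standard error) and in males (squares) and females (triangles) fitted alone. S100a6 stands at 1.99, the other 8 between -0.06 and 0.86, and the dashed line marks the median of all tested genes, 0.00.

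S100a6 (ENSMUSG00000001025), which encodes calcyclin, a calcium sensor that binds annexins and the ubiquitin-pathway adaptor Cacybp, was higher in middle-aged CD8+ Tregs. It measured 673 CPM in middle-aged male 1, 514 CPM in middle-aged male 2, and 541, 260.4 and 279 CPM in middle-aged females 1, 2 and 3. Young libraries ranged from 76.0 to 173.5 CPM with a median of 113 CPM. The age groups did not overlap, and both middle-aged males and middle-aged female 1 stood above middle-aged females 2 and 3. The young libraries averaged 113.5 ± 35.3 CPM (SD, n = 6), against 453.5 ± 178.5 CPM (SD, n = 5) for the middle-aged, a log2 fold change of 1.99 (standard error 0.32) or 3.96-fold. With each library left out in turn the log2 fold change lay between 1.81 and 2.19, and it was 1.84 without the 4 libraries numbered 1. Libraries of the same replicate number differed by age by 2.10 (number 1), 1.63 (number 2) and 1.83 (number 3) in mean log2 CPM. No middle-aged male carried number 3, so that value sets middle-aged female 3 alone against young male 3 and young female 3. Males fitted alone gave 2.54 (standard error 0.36) and females 1.54 (standard error 0.43).

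S100a4 (ENSMUSG00000001020), which encodes a myosin-binding S100 protein known as a gene of effector and memory T cells, was almost not counted. Its counts in middle-aged males 1 and 2 were 1 and 7, and in middle-aged females 1, 2 and 3 they were 10, 7 and 3. Young libraries held 0, 1 and 3 counts in males 1, 2 and 3 and 6, 3 and 5 in females 1, 2 and 3. That made 46 counts over all 11 libraries, 18 in young and 28 in middle-aged ones, a level of 0 to 0.834 CPM, with 3 counts or fewer in 6 libraries. In the GENCODE annotation of GRCm38, 302 of the 584 exonic bases of S100a4 (51.7%) are also exons of a second gene on the same strand, Gm42674, and 49.2% of the 31-base words of S100a4 transcripts occur in Gm42674. Gm42674 was listed at 0 counts in 11 of 11 libraries. How reads on shared exons were assigned is not given in the sources used here, so the count of S100a4 is uncertain as a measure of its RNA, and no age difference is given for it.

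S100a10 (ENSMUSG00000041959), the partner of Anxa2 that carries membrane channels to the cell surface, was abundant in both age groups. Middle-aged males 1 and 2 had 687 and 568 CPM, and middle-aged females 1, 2 and 3 had 606, 426 and 356 CPM. Values in young libraries ran from 363 to 1004 CPM around a median of 450.0 CPM, the highest in young female 1. The groups overlapped over most of their range, with a young mean of 539 ± 240.6 CPM (SD, n = 6) and a middle-aged mean of 529 ± 135 CPM (SD, n = 5). This gave a log2 fold change of -0.02 (standard error 0.30), which moved to 0.26 without young female 1 and to -0.17 without middle-aged male 1.

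S100a11 (ENSMUSG00000027907), the partner of Anxa1, had 288 and 218 CPM in middle-aged males 1 and 2, and 195, 202 and 149.6 CPM in middle-aged females 1, 2 and 3. Young libraries spanned 61.7 CPM in young male 1 to 328 CPM in young female 1, with a median of 184 CPM. All 5 middle-aged values fell inside the young range. The log2 fold change was 0.18 (standard error 0.35), -0.03 without young male 1 and 0.04 without the 4 libraries numbered 1. Of the 31-base words of its transcript, 48.9% occur in other genes, most of them in Gm12854, a gene on chromosome 4 that had 2 to 54 counts per library, so reads could be shared between them.

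S100a13 (ENSMUSG00000042312), an S100 protein tied to the secretion of proteins that lack a signal peptide, varied more within the age groups than between them. Middle-aged males 1 and 2 had 241 and 108 CPM, and middle-aged females 1, 2 and 3 had 230.4, 79.7 and 64.4 CPM. In young libraries the range was 64.5 to 313.5 CPM with a median of 94.0 CPM. In each sex and age group the library numbered 1 was the highest. A log2 fold change of -0.06 (standard error 0.53) resulted, 0.41 without young female 1 and -0.38 without middle-aged male 1, and without the 4 libraries numbered 1 it was 0.05.

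Among the annexins, Anxa2 (ENSMUSG00000032231), which links membranes to the actin cytoskeleton, had the smallest spread within groups of all 10 genes, 0.29 on the log2 scale. Middle-aged males 1 and 2 measured 563 and 448 CPM, and middle-aged females 1, 2 and 3 measured 667, 419 and 361 CPM. Young libraries lay between 331 and 454 CPM with a median of 381 CPM. Middle-aged male 1 and middle-aged female 1 stood above every young library, and the other 3 middle-aged libraries stood within the young range. The means, 388.5 ± 42.8 CPM (SD, n = 6) and 491.5 ± 122.8 CPM (SD, n = 5), correspond to a log2 fold change of 0.34 (standard error 0.21). Without the 4 libraries numbered 1 it was 0.17. In the annotation, exons of Gm16144 on the other strand overlap Anxa2, but they hold 1.86% of its words and Gm16144 had at most 15 counts in a library.

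Anxa5 (ENSMUSG00000027712), whose protein binds exposed phosphatidylserine, had 159.6 and 109 CPM in middle-aged males 1 and 2, and 137, 82.1 and 74.0 CPM in middle-aged females 1, 2 and 3. Young values lay between 81.3 and 144 CPM with a median of 125 CPM. Middle-aged male 1 was the highest and middle-aged female 3 the lowest of all 11 libraries. The groups otherwise overlapped, with a log2 fold change of -0.03 (standard error 0.26), and -0.20 without the 4 libraries numbered 1.

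Anxa6 (ENSMUSG00000018340), an annexin with a doubled core that organises membrane and cholesterol, had the highest CPM of the annexins. It measured 659 and 1227 CPM in middle-aged males 1 and 2, and 940, 1140.5 and 1122.5 CPM in middle-aged females 1, 2 and 3. Young libraries ranged from 425 to 1219.6 CPM with a median of 1092 CPM. The low values were those of libraries numbered 1 in both age groups, and the log2 fold change was 0.09 (standard error 0.29).

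Anxa1 (ENSMUSG00000024659), a mediator of glucocorticoid action that acts on formyl peptide receptors, differed most in 2 libraries. Middle-aged males 1 and 2 had 17.4 and 10.9 CPM, and middle-aged females 1 and 3 had 20.5 and 17.6 CPM, whereas middle-aged female 2 had 183 CPM. Young female 1 had 4 counts (0.556 CPM), and the other young libraries had 14.5 to 31.8 CPM. Apart from these 2 libraries the age groups overlapped. The log2 fold change of 0.86 (standard error 0.93) became -0.30 without middle-aged female 2, and limma voom, which gives libraries quality weights, put it at -0.21 (standard error 0.57). Middle-aged female 2 was also the highest of the 11 libraries in several genes of neutrophils and macrophages, with 702 CPM of S100a8 (at most 38.6 CPM in any other library), 766 CPM of S100a9 (at most 41.4 CPM), 99.8 CPM of Lgals3 (at most 22.1 CPM) and 1058 CPM of Lyz2 (at most 285.5 CPM). Of the 12 myeloid marker genes, 8 were highest in this library and 4 in a young one, Csf1r and Adgre1 in young male 3 and Cst3 and Mpeg1 in young female 1. Young female 1 held 0 counts of both S100a8 and S100a9, while its summed myeloid markers, at 461 CPM, were the highest of the young libraries. Cst3 alone gave 359.8 CPM of that sum, and the same library had 0 counts of Cd14 and Itgam and 1 count of Csf1r. Of the myeloid list as a whole, 0 of 12 genes passed an adjusted p under 0.05 for age and 1, Lyz2, an unadjusted one. The log2 fold change of Lyz2 was 2.38 (standard error 0.79), and 1.19 (standard error 0.49) without middle-aged female 2. Cd14, Csf1r and Itgam were at 0 in 2, 1 and 2 of the 11 libraries. Summed plasma cell and B cell genes were highest in middle-aged female 2 as well, at 357 and 608 CPM. The part of other cells in the Anxa1 level was not tested.

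**Figure D3:**
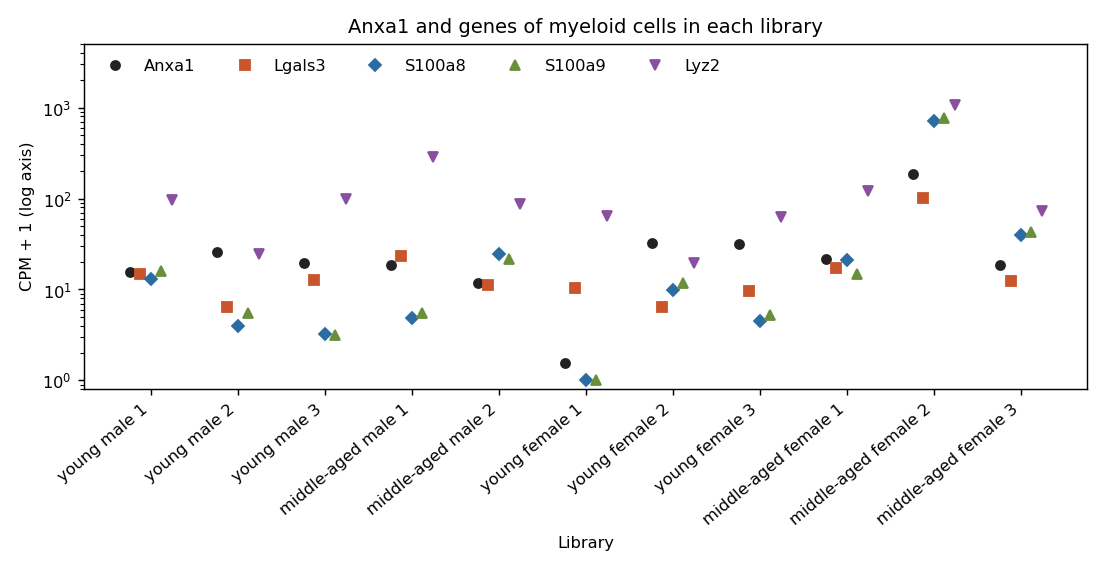
CPM plus 1, on a log axis, of Anxa1 and of the myeloid genes Lgals3, S100a8, S100a9 and Lyz2 in each of the 11 libraries. All 5 genes are highest in middle-aged female 2 (183 CPM of Anxa1), and Anxa1, S100a8 and S100a9 are lowest in young female 1.

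Lgals1 (ENSMUSG00000068220), the galectin-1 gene, measured 875 and 570 CPM in middle-aged males 1 and 2, and 748, 444 and 335 CPM in middle-aged females 1, 2 and 3. Young libraries spanned 225 to 874 CPM with a median of 331 CPM. Young male 1 (614 CPM) and young female 1 (874 CPM) overlapped the middle-aged range. The other 4 young libraries, at 225 to 364.5 CPM, reached above middle-aged female 3 only in young female 2. Means of 442 ± 252 CPM (SD, n = 6) and 594 ± 220 CPM (SD, n = 5) gave a log2 fold change of 0.43 (standard error 0.39), 0.80 without young female 1 and 0.22 without middle-aged male 1. Without the 4 libraries numbered 1 it was 0.63, and limma voom gave 0.86 (standard error 0.23). Compared within replicate numbers 1, 2 and 3, middle-aged minus young was 0.14, 0.61 and 0.42 on the log2 scale, with no middle-aged male in number 3.

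Levels of different genes were compared as CPM per kilobase of the gene length in the files. That length is 1 value per gene, whereas the annotation held 1 transcript of S100a11 and 8 of Anxa1. The shift of short genes in the libraries numbered 1 also enters these levels, so the order is approximate. Over all 11 libraries Lgals1 led with a mean level of 566 ± 265 (SD), followed by S100a10 (441 ± 157), S100a11 (389 ± 137) and Anxa6 (336 ± 88.3). Then came S100a13 (207 ± 133), S100a6 (196 ± 155), Anxa2 (117 ± 26.6), Anxa5 (64.2 ± 16.8) and Anxa1 (12.9 ± 19.3), with S100a4 at 0.445 ± 0.431. Neighbours in the upper part of this order exchanged places between libraries. Lgals1 was above S100a10 in 7 of 11, which were 2 of 6 young and 5 of 5 middle-aged libraries. S100a10 was above S100a11 in 8 of 11, S100a11 above Anxa6 in 6 and S100a13 above S100a6 in 6. Anxa2 was above Anxa5 in 11 of 11 libraries and Anxa5 above Anxa1 in 10, all but middle-aged female 2. By age group, S100a6 stood seventh in young libraries at 83.0 ± 25.8 CPM per kilobase (n = 6), below Anxa2 in 5 of 6. In middle-aged libraries it was the fifth at 332 ± 131 (n = 5), above S100a13 in 5 of 5.

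The replicate number in the labels moved with most of the members. In a model with sex, age and number, chosen after the data were seen, 7 of the 9 tested members had an adjusted p under 0.05 for number by edgeR, as did 26.3% of all tested genes, and limma voom called the same number of members (34.2% of tested genes). Among these 7 the differences were largest for S100a13 (number 3 minus number 1 of -2.01 on the log2 scale, adjusted p = 0.00012), Lgals1 (-1.45, adjusted p = 0.00101) and S100a6 (-0.98, adjusted p = 0.0355). S100a10 (-0.95, adjusted p = 0.0339), Anxa5 (-0.86, adjusted p = 0.00792) and Anxa2 (-0.52, adjusted p = 0.0396) were also lower in number 3. Anxa6 went the other way (0.74, adjusted p = 0.0366), and S100a11 (-0.46, adjusted p = 0.687) and Anxa1 (1.03, adjusted p = 0.324) did not pass. In 4 members the 4 libraries numbered 1 did not overlap the other 7, as in 25.1% of tested genes. S100a13 had 230.4 to 313.5 CPM in libraries numbered 1 and 64.4 to 108 CPM in the others, Lgals1 614 to 875 CPM and 225 to 570 CPM, and Anxa5 135 to 159.6 CPM and 74.0 to 129 CPM. Anxa6 was lower there, with 425 to 940 CPM against 1092 to 1227 CPM. Gene length differed between these genes, at 715 bases for S100a13, 903 for Lgals1, 1777 for Anxa5 and 2930 for Anxa6. The shortest member, S100a11 at 511 bases, did not pass for number. The longest, Anxa2 at 3731 bases, was lower in number 3, as S100a13, Lgals1 and Anxa5 were. Of the 4 libraries numbered 1, 2 were the shallowest of the series. The part of gene length and depth in these differences was not tested.

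**Figure D4:**
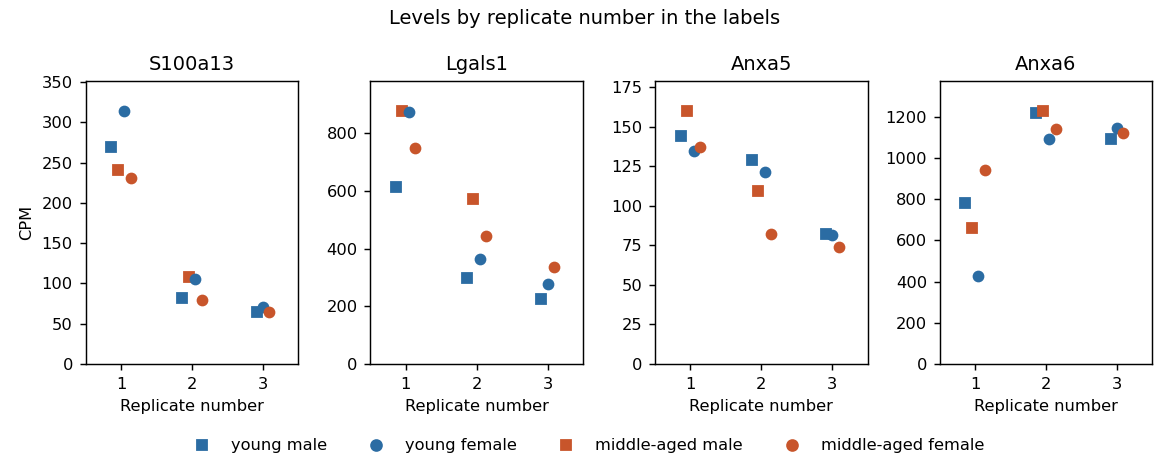
CPM of S100a13, Lgals1, Anxa5 and Anxa6 by the replicate number that the labels give, with age in colour and sex as the symbol. The 4 libraries numbered 1 sit above the other 7 for S100a13, Lgals1 and Anxa5, and below them for Anxa6.

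Sex was not used to choose the genes, and 0 of the 9 tested members had an adjusted p under 0.05 for sex by edgeR, DESeq2 or limma voom (0.0381%, 0.0461% and 0.0457% of tested genes), nor an unadjusted one by edgeR (0.754%). The tightest estimate was that of Anxa2, a log2 female over male difference of 0.01 with a 95% interval of -0.44 to 0.47. For S100a6 it was -0.17 (-0.85 to 0.50), with means of 299 CPM in 5 males and 242 CPM in 6 females. Anxa1 had the widest interval, 1.08 (-0.97 to 3.13). Whether the age difference differed between the sexes was tested by the interaction term, and 0 of 9 members passed an adjusted p under 0.05 (0% of tested genes by edgeR, and 0 genes by DESeq2 or limma voom) or an unadjusted one (1.2%). The age difference of S100a6 was lower in females by 1.01 on the log2 scale (standard error 0.58, adjusted p = 1), that of S100a10 by 1.08 (standard error 0.54) and that of S100a11 by 1.22 (standard error 0.63). In 7 of 9 members this term was negative. The share over all tested genes is not given here, so nothing is read from that count. Males fitted alone gave age differences of 0.58 for S100a10, 0.84 for S100a11 and 0.94 for Lgals1, and females alone -0.49, -0.36 and 0.03.

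The S100 and annexin genes whose proteins pair were compared across libraries within the 4 age and sex groups, so that the age difference did not enter. S100a10 and Anxa2 rose and fell together, with r = 0.771 and rho = 0.873 over 11 libraries (exact permutation within groups, 2-sided, p = 0.00231 for both, 0.00463 after adjustment over 2 pairs). Leaving out young females 1 and 3, the 2 libraries farthest out in S100a10, gave r = 0.977. S100a11 and Anxa1 had r = -0.196 and rho = 0.0455 (exact permutation p = 0.634 and 0.912, also after adjustment), and r = -0.477 without young males 1 and 2. Both S100a10 and Anxa2 also moved with the replicate number. Once the number was centred as well, r for S100a10 and Anxa2 was -0.12 (exact permutation, adjusted p = 0.685), and with libraries scaled by size alone it was 0.39 (adjusted p = 0.523). The numbers held 4, 4 and 3 libraries, too few for a correlation within each.

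**Figure D5:**
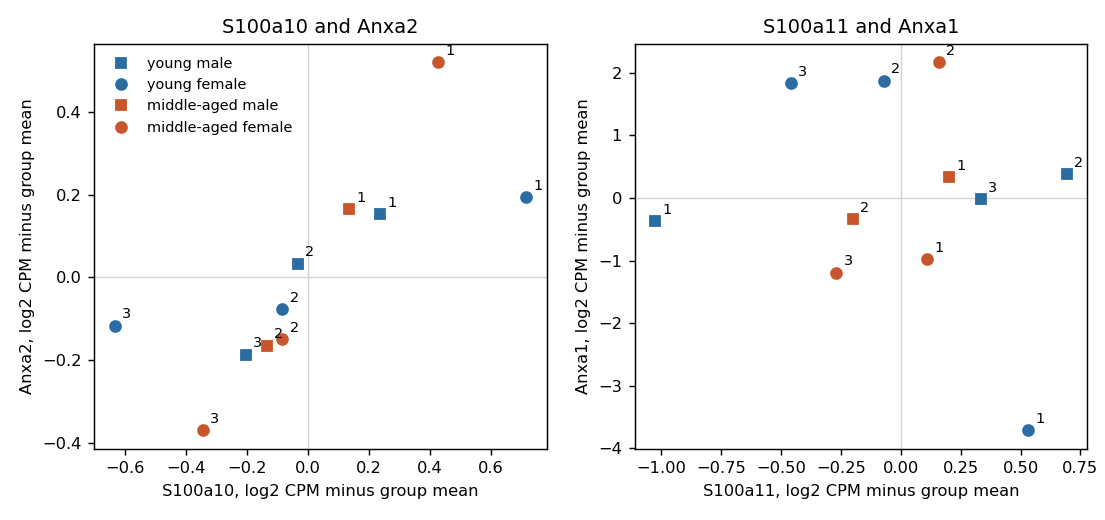
Log2 CPM minus the mean of its age and sex group for S100a10 against Anxa2 (left) and S100a11 against Anxa1 (right), 1 point per library, labelled with its replicate number. Points of the left panel run from number 3 at the lower left to number 1 at the upper right (r = 0.771), and those of the right panel show r = -0.196.

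Over the 11 libraries, the genes whose log2 CPM ran most like that of S100a6 among 8331 tested genes with a mean of at least 10 CPM were Bbs9 (r = 0.956), Ccl5 (r = 0.946), Tspan31 (r = 0.945), Ms4a6d (r = 0.942) and Tpd52 (r = 0.933). These correlations include the age difference and the differences between replicate numbers, and share the libraries' depth. Ccl5, a chemokine of effector and memory CD8 T cells, averaged 1164 CPM in the young and 2690.4 CPM in the middle-aged. Bbs9, a subunit of the complex that sorts proteins to cilia, averaged 56.2 and 89.2 CPM. Of the members, Anxa2 (r = 0.78) and Lgals1 (r = 0.69) ran most like S100a6, and the other 6 tested members had r between -0.16 and 0.41.

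Genes of the same families and of their partners were taken from lists, and 0 genes of these lists passed an adjusted p under 0.05 for age by edgeR. The remaining S100, annexin and galectin genes of the table numbered 27, of which 11 were tested, with a median log2 fold change of 0.28 (9 positive, 2 negative). At an unadjusted p under 0.05 there were 3 of them, all higher in middle-aged CD8+ Tregs: S100a8 and S100a9, the calprotectin genes, and Lgals3, which encodes galectin-3. Their log2 fold changes of 4.18, 3.96 and 1.69 became 2.08, 1.70 and 0.74 without middle-aged female 2, and 0 of the 3 then had an unadjusted p under 0.05. Anxa7 had -0.34 (standard error 0.27).

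The list of 12 binding partners and receptors had 10 tested genes, 5 positive and 5 negative, with a median of 0.01. Ahnak, a giant scaffold protein bound by the S100a10 and Anxa2 complex, passed an unadjusted p under 0.05 at 0.50 (standard error 0.22), with a young range of 144.7 to 223 CPM and a middle-aged range of 155.5 to 321 CPM. Fpr1, a receptor of Anxa1, was at no more than 4.28 CPM and at 0 counts in 4 of the 6 young libraries. Its value was 2.13 (standard error 1.32), 0.83 (standard error 1.80) without the 4 libraries numbered 1, and -1.41 within number 3, which had no middle-aged male. S100pbp, which binds S100 proteins, had -0.41 (standard error 0.30), and Anxa11, a partner of S100a6, had 0.28 (standard error 0.57).

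Of 23 genes of the actin and membrane cytoskeleton, all were tested, 17 were positive and 6 negative, and the median was 0.13. At an unadjusted p under 0.05 there were 4, all higher in middle-aged libraries. They were Itgb1, the integrin beta-1 chain (0.96, standard error 0.33), Lmna, the nuclear lamin A/C gene (0.94, standard error 0.37), Capg, an actin filament capping protein (0.70, standard error 0.29), and Vim, the intermediate filament vimentin (0.50, standard error 0.23). Without middle-aged female 2, Capg had 0.49 (standard error 0.27) and Vim 0.53 (standard error 0.26), and neither passed an unadjusted p under 0.05. Without the 4 libraries numbered 1 the values were 0.98 for Itgb1, 1.06 for Lmna, 0.74 for Capg and 0.45 for Vim.

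Among 13 genes of naive and central memory T cells, 4 were positive and 9 negative, with a median of -0.20. An unadjusted p under 0.05 was reached by 4, all lower in middle-aged libraries: Id3, Dapl1, Actn1 and Lef1, named after their values were seen. DESeq2 called Id3 at an adjusted p under 0.05, and limma voom called Id3 and Dapl1. Id3, a transcriptional regulator kept high in long-lived memory precursors, ranged from 286 to 804 CPM in the young and from 88.8 to 267 CPM in the middle-aged libraries. These ranges did not overlap, and the log2 fold change was -1.50 with a standard error of 0.35 (adjusted p = 0.334). For Dapl1, at 89.9 to 220.2 CPM and 31.2 to 79.2 CPM, it was -1.11 with a standard error of 0.31 (adjusted p = 0.53).

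The level of genes listed as markers of other cells differed between the libraries as well. The paper reports NK receptor genes in CD8+ Tregs themselves, some higher and some lower in middle age. The NK list therefore does not separate NK cells from CD8+ Tregs. Of 8 NK cell genes, 0 were positive and 8 negative, 4 of them at an unadjusted p under 0.05, and their summed CPM ran from 462 to 1131 among the young and from 178 to 850.5 among the middle-aged libraries. Of 10 erythroid and platelet genes 7 were tested, and the sums were 29.7 to 157 CPM in the young and 1.28 to 39.1 CPM in the middle-aged. At an unadjusted p under 0.05, 4 were lower, the haemoglobin genes Hba-a1, Hba-a2, Hbb-bs and Hbb-bt. The other 3, the platelet genes Pf4, Ppbp and Itga2b, were positive, at 1.74, 0.95 and 1.68 (standard errors 1.53, 1.34 and 2.33). CD4 T cell genes had 1 of 5 lower at an unadjusted p under 0.05. Of the tested genes, 8 of B cells, 5 of plasma cells, 5 of dendritic cells and 7 of the gate, 0 had an unadjusted p under 0.05. The part of these cells in the members' levels was not tested.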

How the data were processed

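Whole-number counts of reads on 54532 Ensembl genes in 11 libraries were deposited by the authors without normalization, at GRCm38 gene coordinates. The submitters' processing notes name kallisto and mm10 without a role. Strandedness, the counting step and the handling of shared reads are not given in the sources used here. The study describes the libraries as independent biological replicates, and p values measure the spread between them.

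Counts were analysed in R 4.3.3 with edgeR 4.0.16: filterByExpr on age (minimum count 10, minimum total 15), TMM factors, and glmQLFit (robust) and glmQLFTest with sex and age, Benjamini-Hochberg adjusted over 13129 genes. The interaction was tested with that term. DESeq2 1.42.0, limma 3.58.1 (voom with quality weights), other scalings and filters, a replicate block, each sex alone and each library left out were alternatives. CPM were scaled with the TMM factors. Log values were taken after adding a prior count of 2. The age test was checked on simulated counts, where a larger share of the calls was false with DESeq2 than with edgeR or limma voom. Those counts held a large age change in some genes and no effect of sex or replicate number. The shares of false calls therefore need not hold for these data. Partner pairs were permuted exactly within groups (432 orders).

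The members and gene lists were chosen with earlier results of these data known. Named are all members, list genes of partners, cytoskeleton and relatives with an adjusted p under 0.05 or else up to 4 a list with the smallest p, and the 5 genes most correlated with S100a6. The tests of replicate number and the fit without the 4 libraries numbered 1 were added after the data were seen. Floors of 3 counts and interval bounds cover counting error or library spread only. Reads had no molecular identifiers. Promoter letters came from RefSeq (GRCm38.p6), and word and exon overlaps from GENCODE.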

Additional observations from a re-analysis of the deposited data

Results flagged for a closer look

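In the age groups of 5 and 6 libraries, 25 genes of the report were searched for a library far from the others (Dixon's 95% critical value), and 11 of 50 gene and group pairs were found. Chance flags about 1 in 20 groups if values are spread normally, but the search used CPM and not log values, so the rate is only rough. It does not apply to genes named with their values known, as were S100a8, S100a9, Lgals3, Lyz2, Id3 and Dapl1. Among the members, Anxa1 stood out in middle-aged female 2 (182.7 CPM, the other middle-aged libraries 10.9 to 20.5 CPM), S100a10 in young female 1 (1004.1 CPM, other young libraries 363 to 575.4 CPM) and S100a4 in young female 1 (0.834 CPM, which is 6 counts, others at most 0.288 CPM). Middle-aged female 2 stood out in S100a8 (702.4 CPM), S100a9 (765.8 CPM), Lgals3 (99.8 CPM) and Lyz2 (1058.3 CPM) as well. Among list genes, young male 1 was far from the other young libraries in Capg (61.7 CPM, others 28.1 to 38.1 CPM) and Vim (155.7 CPM, others 297.8 to 375.7 CPM), and young female 1 in Id3 (804 CPM, others 286.4 to 441.6 CPM) and Dapl1 (220.2 CPM, others 89.9 to 131.5 CPM). No member had an age difference of opposite sign in the 2 sexes with every library apart.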

How the results depend on the processing

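Of 197 values of the members' age log2 fold change under 22 other settings, 193 moved by less than the spread within groups and 4 by more. The 4 were S100a6 (2.54), S100a10 (0.58) and S100a11 (0.84) in males alone, and S100a10 (-0.49) in females alone. That spread was wide for Anxa1 (2.01 on the log2 scale) and S100a13 (1.03), so changes of sign could stay within it. With limma voom, Anxa1 went from 0.86 to -0.21 and S100a13 from -0.06 to 0.41. Over all genes, 17 passed the age test with every gene of at least 1 count, 5 with at least 10 counts in every library, 112 with DESeq2, 138 with limma voom, 5 without the sex term, and 0 in males or females alone, against 3; leaving out 1 library gave 1 to 4. The sex test called 0 with at least 10 counts in every library, against 5, and 0 to 5 with 1 library left out, with 0 without young male 1, 2 or 3. S100a6 became the 1 member called for age with library size alone, with either filter, with DESeq2, with limma voom, without the sex term and without young female 1 (0 to 1 over the libraries left out). The members were chosen with this contrast in view, so nothing is read from these calls. The lists around the members had 1 call with at least 1 count (Id3), 1 with DESeq2 (Id3) and 2 with limma voom (Id3 and Dapl1). The cause of these changes was not tested.

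Samples with the same number in a sex correlated by 0.32 and 0.18 in males and 0.43, 0.03 and 0.39 in females, and 7 of 10 libraries correlated best with their own number, a hint from the data and not from the design. As 1 of the 5 correlations was not over 0.1, the limit used, the age test was left without the block. With a replicate block within sex, 2 genes were called for age and 0 members, and S100a6 had 1.87 (standard error 0.22). With the block shared by both sexes, 4 genes were called for sex and 0 for the interaction. For S100a10 and Anxa2, r was -0.12 with the block and 0.39 with library size alone, and 0.74 to 0.88 with 1 library left out. For S100a11 and Anxa1 it was 0.35 without young female 1, and -0.47 to 0.35 over the libraries left out. In the shallowest library a count of 0, as S100a4 had there, allows up to 0.543 CPM.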
